A study of Mus musculus with 6 samples.

Results

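Histone genes were taken as the rows of the count table whose Ensembl identifier belongs, in the GENCODE annotation, to a protein-coding gene with a histone symbol: Hist1h to Hist4h, H1f, H2af or H3f3, with the newer symbols H1-, H2ac, H2bc, H3c and H4c also searched. The rule found 75 genes among the 28564 identifiers of the table. Of these, 65 are replication-dependent genes of the Hist1 to Hist4 clusters, called cluster genes here, and 10 are replacement variants. A further 7 annotated genes of these names were not analysed here. The libraries came from small intestinal crypt epithelium of the mouse, where stem cells and their dividing progeny lie. Male mice aged 13 weeks, either wild-type C57Bl/6 or Apln-/-, gave 3 libraries per genotype, which the labels call biological replicates. Apln encodes apelin, a secreted peptide that signals through the receptor encoded by Aplnr. After digestion of the tissue with Liberase TL, live single cells positive for the epithelial protein EpCAM and for CD44 and negative for CD31 (endothelium) and CD45 (blood cells) were sorted. The labels give the knockout as Apln-/- and name no Cre or transgene.

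Histones are the proteins around which DNA is wound. Cluster genes supply the bulk of H2A, H2B, H3, H4 and linker H1 while DNA is copied, and their messenger RNAs typically end in a stem-loop in place of a poly(A) tail and are destroyed when DNA synthesis ends. Replacement variants are made throughout the cell cycle and in resting cells, usually from genes with introns and with polyadenylated transcripts, and they exchange into chromatin outside DNA synthesis. In the crypt, progenitors divide and then leave the cell cycle on the way to the villus, so both kinds are in use.

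Library totals ran from 23046880 to 26513481 counts, of which 5144725 to 7616648 lay outside the 5 most abundant entries, chiefly mitochondrial ribosomal RNA. Those entries took 70.7% to 75.3% of wild-type and 77.3% to 78.9% of knockout counts. Histone genes held 15760 to 27656 counts per library. Levels are given as CPM, counts scaled to library size; where no read was counted the limit is 3 counts, which is 0.0946 to 0.142 CPM in these libraries and covers counting error only. Apln itself had 29, 7 and 5 counts in the wild-type libraries and 0 in each knockout library. Epcam had 6221 to 9623 counts in each library, while the endothelial gene Pecam1 had at most 33 and the blood cell gene Ptprc at most 96. Knockout replicate 2 held 147 counts of Acta2 and 234 of Myh11, both smooth muscle genes, against at most 29 and 21 elsewhere. Its 7 fibroblast and muscle markers together summed to 34.0 CPM, near the 31.0 CPM of wild-type replicate 1. Stem cell markers (Lgr5, Olfm4, Ascl2, Smoc2) summed to 873, 895 and 574 CPM in wild type and 1251, 616 and 981 CPM in the knockout. Goblet cell markers summed to 4492 CPM in wild-type replicate 3 against 2346 and 1475 CPM in the other wild-type libraries. Of the cell type lists, the sums of 3 did not overlap between genotypes: Paneth cell markers lay at 632 to 984 CPM in wild type and 1052 to 2497 CPM in the knockout, enteroendocrine markers at 673 to 924 and 386 to 526 CPM, and tuft cell markers at 65.9 to 87.4 and 22.4 to 50.7 CPM. All 6, 5 and 4 genes of these lists were in the table with counts, and the part of these cells in the histone results was not tested. Results that rest on these libraries are given with their values in every library.

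The classes were set by gene symbol. The 3′ stem-loop is typical of cluster genes, so the forms found in these genes are shown first. The histone 3′ stem-loop was searched on the transcript strand within 100 bases after the stop codon, as a stem of 6 pairs (G with T allowed) that begins with GG, ends with CC and closes with a T-A pair on a loop of 4 bases beginning with TT. The search found a stem-loop of 16 bases in 42 of the 65 cluster genes, 21 to 58 bases after the stop codon, and in 1 of the 10 replacement variants. Over the protein-coding genes of the table, 45 (0.272%) held one, and 43 of these were the histone genes themselves. Only 7 forms occurred, written here as DNA, with the loop in capitals and the stems in lower case.
Most common form, in 24 genes of H1, H2A, H2B and H3: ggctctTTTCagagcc
H4 form, in 7 genes including Hist1h4d: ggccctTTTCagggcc
Form in 6 genes including Hist1h3c, Hist1h3e and Hist1h3f: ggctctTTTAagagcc
Form of Hist1h4i and Hist2h4: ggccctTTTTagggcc
Form of Hist1h4b and Hist1h4j: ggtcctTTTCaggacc
Form of the replacement variant H2afx: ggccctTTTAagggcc
Form of Hist2h2ac: ggctctTTTTagagcc
H2afx encodes H2A.X, the variant phosphorylated at DNA breaks. It is the replacement variant here with a stem-loop, and its annotated transcript goes on for 822 bases beyond it. Among all members, 22 had annotated transcripts that ran at least 100 bases past the stem-loop, among them Hist1h1c, Hist1h1e, Hist1h2be and Hist1h4d. In 15 members the annotated 3′ UTR had 30 bases or fewer, so no stem-loop could be looked for there in full. Transcripts of the cluster genes were short, with a median of 534 bases for the longest annotated one, against 1943 bases for the replacement variants.

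Promoter letters also differed between families. RefSeq windows (GRCm38.p6, 250 bases before to 50 after the start) were available for 69 members, and each motif was searched on both strands. TATAAA, the letters of the TATA box, occurred anywhere in the window in 34 of 60 cluster genes and in 1 of 9 replacement variants. Of the windows of all genes, 14.2% held it. The letters were not required to lie where a TATA box does, and in Hist1h4f they lay at the upstream end of the window. CCAAT occurred in every H1, H2A, H2B and H3 cluster gene with a window but in 3 of 12 H4 genes, against 37.9% of all genes. The octamer ATTTGCAT, to which POU-domain factors bind, occurred in 7 of 17 H2A and 6 of 16 H2B genes and in none of the other cluster genes, against 1.75% of all genes. Windows of neighbouring H2A and H2B genes on opposite strands can overlap, so 1 site can count for both genes. This held for the octamers of Hist1h2ah and Hist1h2bk, of Hist1h2ae and Hist1h2bg, and of Hist1h2aa and Hist1h2ba. The AC box AAACACA, known from linker histone promoters, occurred in 5 of 6 H1 cluster genes, against 7.14% of all genes. The 130 bases before the start are shown for members that carry the results below, with these motifs in capitals on whichever strand they lie.
Hist1h1b, chr13:21780626-21780755, minus strand: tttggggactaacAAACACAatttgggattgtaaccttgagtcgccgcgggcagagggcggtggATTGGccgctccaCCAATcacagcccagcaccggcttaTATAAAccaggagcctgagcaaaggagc
Hist1h1e, chr13:23622559-23622688, minus strand: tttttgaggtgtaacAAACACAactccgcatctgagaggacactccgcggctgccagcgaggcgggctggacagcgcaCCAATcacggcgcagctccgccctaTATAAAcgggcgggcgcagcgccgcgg
Hist1h4d, chr13:23581438-23581567, plus strand: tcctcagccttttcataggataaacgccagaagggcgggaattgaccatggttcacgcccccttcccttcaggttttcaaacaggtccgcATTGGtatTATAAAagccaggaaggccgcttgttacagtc
Hist1h2bg, chr13:23571270-23571399, plus strand: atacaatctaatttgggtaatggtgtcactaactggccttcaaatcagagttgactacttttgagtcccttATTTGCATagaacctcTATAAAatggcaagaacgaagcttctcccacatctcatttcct
H3f3a, chr1:180813606-180813735, minus strand: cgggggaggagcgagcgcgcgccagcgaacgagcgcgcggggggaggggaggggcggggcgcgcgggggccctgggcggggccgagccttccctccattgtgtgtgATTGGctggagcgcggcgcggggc
H3f3b, chr11:116024505-116024634, minus strand: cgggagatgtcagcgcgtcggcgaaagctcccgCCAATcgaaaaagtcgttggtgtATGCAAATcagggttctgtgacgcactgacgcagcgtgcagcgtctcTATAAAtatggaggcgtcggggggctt
Hist1h1b and Hist1h1e hold the AC box, CCAAT and TATAAA in that order towards the start. Hist1h4d holds CCAAT on the opposite strand, and TATAAA. Hist1h2bg holds an octamer upstream of TATAAA. The promoters of H3f3a and H3f3b differ in these letters although both genes encode histone H3.3: H3f3b holds CCAAT, an octamer and TATAAA, and H3f3a holds CCAAT alone in these 130 bases, on the opposite strand.

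The design compares crypt cells of mice without apelin with those of wild-type mice. None of the 62 histone genes that passed the filter on low counts was called higher or lower by edgeR's quasi-likelihood test at an adjusted p under 0.05. Over all 15122 genes tested, 0.172% were called, 0.112% higher and 0.0595% lower. The lowest adjusted p of a histone gene by this test was 0.0682, for H3f3a. The DESeq2 Wald test called 3 members higher (H3f3a, Hist1h1b and Hist1h1e) and none lower, out of 581 genes it called in all. Before adjustment, 6 histone genes had p under 0.05 with a higher value in the knockout and 0 with a lower one, beside 7.53% and 7.66% of all genes tested, so the count of higher values was close to the background. In sorted populations such as these, fewer cells of a type and less RNA per cell cannot be told apart.

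With all libraries in the fit, the classes differed in their medians and in how tightly the libraries held together. Replacement variants had a median log2 fold change, knockout over wild type, of 0.33 over 8 tested genes (from -0.28 to 0.68), and 6 of the 8 were positive. Cluster genes had a median of 0.10 over 54 tested genes (from -0.88 to 1.04), with 32 positive and 22 negative, where 50.5% of all genes tested were negative. The median of all genes was -0.01. The 2 groups of libraries did not overlap for 4 of the 8 variants (H1f0, H2afv, H3f3a and H3f3b) and for 1 of the 54 cluster genes, the low-level Hist2h3c2, named after its values were seen. All 5 lay higher in the knockout, beside 11.3% of all genes tested, so libraries apart in this direction were no more frequent over the 62 members than over the table. The difference between the classes was not tested. The cluster median rested on single libraries: it was 0.36 without knockout replicate 2, 0.01 without knockout replicate 1 and -0.03 without knockout replicate 3. Without knockout replicate 2 the variant median was 0.33, so the cluster median was then the higher one. Transcript length moved with the comparison as well, since the 1893 shortest of all genes tested (up to 1094 bases) had a median of 0.25. Among the cluster genes, the 38 tested ones of that length had a median of 0.04 and the 16 longer ones 0.15. With a correction for length and GC content the medians were 0.19 for variants and -0.05 for cluster genes, and the part of length in the results was not tested further.

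**Figure D1:**
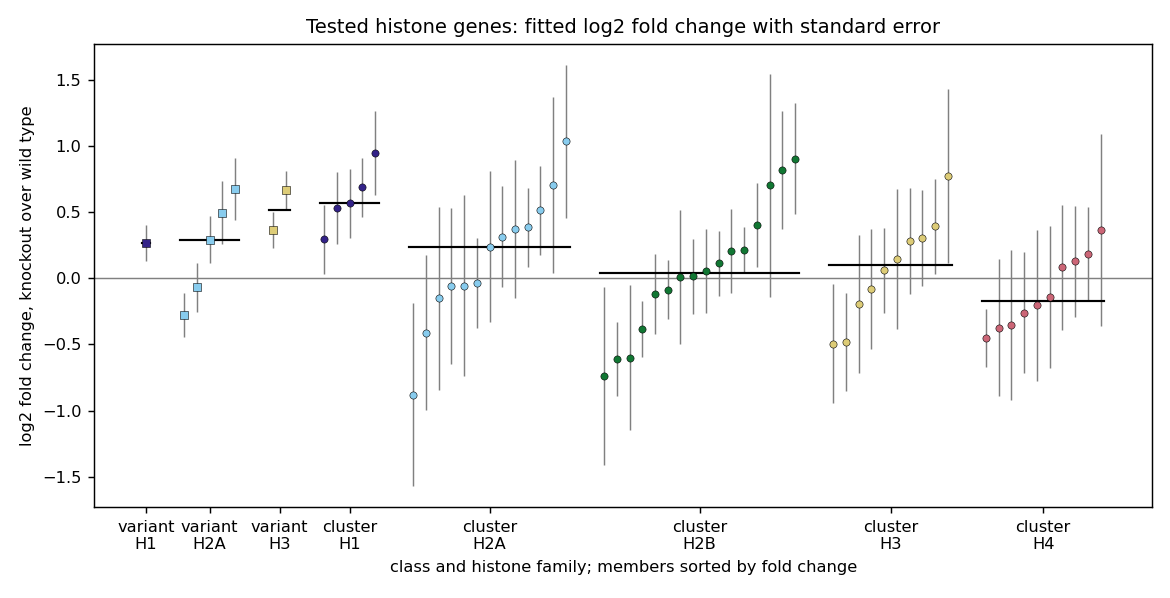
Fitted log2 fold change (knockout over wild type, y axis) of the 62 tested histone genes, sorted within class and family along the x axis; squares are replacement variants, circles cluster genes, vertical lines standard errors and horizontal bars group medians. Cluster H1 genes all lie above 0 with a median of 0.57, while cluster H4 genes have a median of -0.17.

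Histone H3.3 is the replacement form of H3 and is laid down in active genes and at telomeres. Its gene H3f3a (chromosome 1) measured 42.4, 37.8 and 45.6 CPM in the wild-type libraries and 66.8, 68.8 and 64.4 CPM in the knockout libraries. Each knockout library lay above each wild-type library, and the spread within a genotype was small beside the gap. The fold was 1.59 (log2 fold change 0.67, SE 0.14, edgeR adjusted p = 0.0682). Across the alternatives the log2 fold change stayed between 0.55 and 0.74, with adjusted p from 0.00203 to 0.400. On the other strand its exons overlap H3f3aos and Gm17275, and no source used here gives the strand setting of the counting, so reads of these genes could not be separated. H3f3b, which encodes the same protein, measured 76.7, 68.8 and 76.7 CPM in wild type and 98.6, 92.4 and 95.4 CPM in the knockout. Here too the groups were apart, with a smaller gap (log2 fold change 0.37, SE 0.14, edgeR adjusted p = 0.240). Of all counts on H3 genes, H3f3a and H3f3b together took 77.7%, 71.0% and 74.2% in wild type and 78.0%, 87.1% and 76.4% in the knockout. That share overlapped between genotypes and was highest in knockout replicate 2, where the cluster H3 genes were lowest.

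Linker histone H1.0, encoded by H1f0, is known for accumulating in cells that stop dividing. H1f0 measured 64.9, 62.4 and 58.4 CPM in wild type and 73.0, 74.7 and 75.8 CPM in the knockout. The groups did not overlap, although the difference was among the smaller ones (log2 fold change 0.27, SE 0.14, edgeR adjusted p = 0.382). H1fx, the gene for H1.X, was too low to test, with 13 counts over the 6 libraries.

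Among the H2A variants, H2A.Z is encoded by H2afz and H2afv and sits at promoters. H2afv measured 9.56, 6.85 and 13.2 CPM in wild type and 17.2, 14.2 and 16.02 CPM in the knockout (log2 fold change 0.68, SE 0.23, edgeR adjusted p = 0.206). Its groups did not overlap, and wild-type replicate 3 came closest to the knockout. Without wild-type replicate 3, edgeR called H2afv higher. H2afz, the more abundant H2A.Z gene, measured 21.7, 26.7 and 17.5 CPM in wild type and 27.4, 27.8 and 25.6 CPM in the knockout, so its groups overlapped (log2 fold change 0.29). Its value with the length and GC correction was 0.04.

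H2afj, an H2A variant reported to build up in senescent cells, measured 13.8, 9.504 and 19.6 CPM in wild type and 22.4, 17.3 and 21.03 CPM in the knockout (log2 fold change 0.50, SE 0.24, edgeR adjusted p = 0.355). Wild-type replicate 3 fell inside the knockout range. H2afx went the other way, with 91.0, 115 and 86.2 CPM in wild type and 88.4, 66.8 and 85.2 CPM in the knockout (log2 fold change -0.28, SE 0.17, edgeR adjusted p = 0.469). The groups overlapped, and the lowest value was that of knockout replicate 2. H2afy, which encodes the large variant macroH2A, had 20.2 ± 4.54 CPM in wild type and 19.3 ± 0.634 CPM in the knockout (SD, n = 3), and H2afy2, another macroH2A gene, was too low to test with 60 counts in all.

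Summed over all variants, the level was 338, 353 and 335 CPM in wild type and 413, 382 and 403 CPM in the knockout, a ratio of means of 1.17. Without H2afx, the abundant variant whose knockout mean was the lower one, the sum was 247, 238 and 248.7 CPM in wild type and 325, 315 and 317 CPM in the knockout, a ratio of means of 1.30. H2afx was left out with its values known, so the larger ratio follows from that choice and is no further support. Neither sum overlapped between genotypes, and knockout replicate 2 was the lowest of its group in both. Paneth, enteroendocrine and tuft cell markers also separated by genotype, as given above. H2afx took 50.9%, 53.2% and 41.4% of the counts on all H2A genes in wild type and 36.3%, 36.8% and 36.9% in the knockout. All 3 knockout values were below the lowest wild-type value. Both the lower H2afx count and the higher counts of other H2A genes entered that share.

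**Figure D2:**
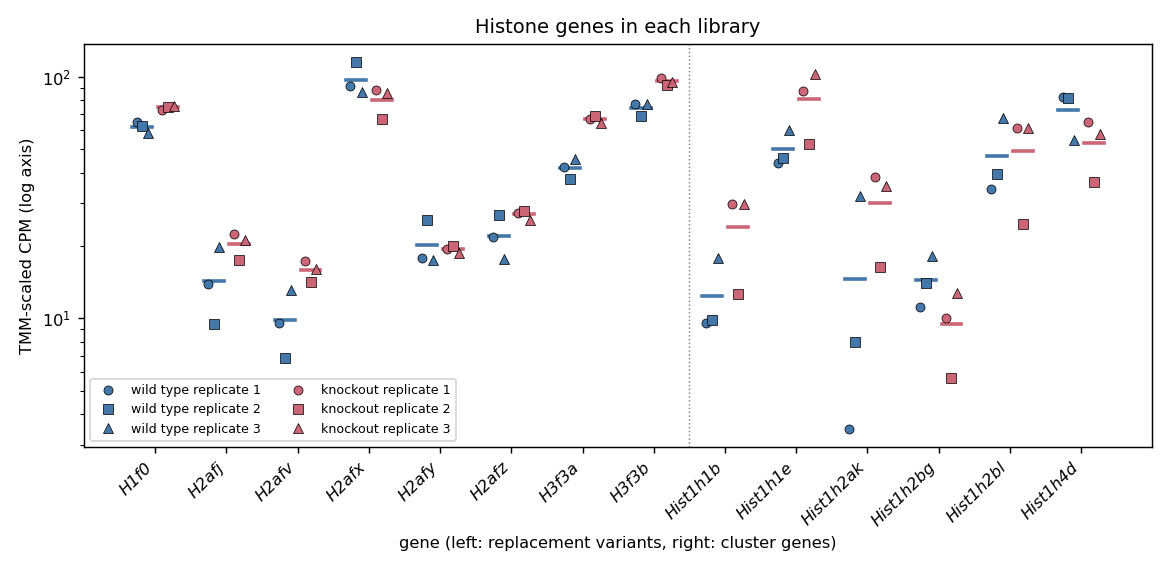
Level of 14 histone genes in each library in CPM on a log axis (y axis); blue marks wild type, red the knockout, marker shapes the replicate number and bars the group means. For H3f3a the wild-type libraries lie between 37.8 and 45.6 CPM and the knockout libraries between 64.4 and 68.8 CPM, whereas for Hist1h1e knockout replicate 2 lies at 52.7 CPM within the wild-type range.

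Cluster genes for linker H1, which binds where DNA enters and leaves the nucleosome, were the family whose tested members all had positive fold changes. Their median log2 fold change was 0.57 over 5 genes, and 3 had an unadjusted p under 0.05, beside 7.53% of all genes tested with such a p and a higher value. Hist1h1e, the most abundant, measured 44.0, 46.2 and 60.1 CPM in wild type and 87.5, 52.7 and 102 CPM in the knockout (log2 fold change 0.69, SE 0.22, edgeR adjusted p = 0.176). Knockout replicates 1 and 3 lay above all wild-type libraries and replicate 2 within them. Its exons overlap those of Hist1h2be, so reads in the shared stretch cannot be assigned to either gene. Hist1h1b measured 9.52, 9.85 and 17.7 CPM in wild type and 29.6, 12.6 and 29.6 CPM in the knockout (log2 fold change 0.95, SE 0.32, edgeR adjusted p = 0.196). The pattern over libraries was the same as for Hist1h1e. Without wild-type replicate 3 or any other single library the direction of both genes held, from 0.49 to 0.93 for Hist1h1e and from 0.77 to 1.31 for Hist1h1b.

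The other linker genes followed with smaller differences. Hist1h1c measured 15.2, 17.4 and 24.4 CPM in wild type and 23.7, 18.1 and 40.8 CPM in the knockout (log2 fold change 0.53, SE 0.27), and its groups overlapped. Without knockout replicate 3, where it was highest, its log2 fold change was 0.14. Hist1h1d, chosen after its values were seen, measured 7.90, 9.81 and 10.5 CPM against 16.5, 8.35 and 17.1 CPM (log2 fold change 0.57). Hist1h1a measured 13.6, 11.6 and 12.9 CPM against 19.5, 8.91 and 18.4 CPM (log2 fold change 0.29). In all 5 genes knockout replicate 2 was the lowest of its group. Summed cluster H1 was 90.3, 95.0 and 126 CPM in wild type and 177, 101 and 208 CPM in the knockout, a ratio of means of 1.56. H1f0 took 41.8%, 39.7% and 31.6% of all H1 counts in wild type and 29.2%, 42.5% and 26.7% in the knockout, so the balance between the variant and the cluster genes overlapped between genotypes. Hist1h1t, the testis form, had 22 counts in all and was not tested.

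Cluster H2A genes were mostly low, apart from Hist1h2ak. This gene measured 3.49, 7.99 and 32.2 CPM in wild type and 38.5, 16.3 and 35.3 CPM in the knockout (log2 fold change 1.04, SE 0.58, edgeR adjusted p = 0.432). Wild-type replicate 3 reached the knockout range while the other wild-type libraries lay far under it, a 9.22-fold spread within a genotype. Without wild-type replicate 3 its log2 fold change was 2.38 and edgeR called it, and without wild-type replicate 1 it was 0.56 and not called. Hist1h2ak took 14.4%, 25.3% and 59.4% of cluster H2A counts in wild type and 56.0%, 46.2% and 55.0% in the knockout. The uncharacterised gene Gm44454 overlaps it on the other strand. Hist1h2ac had 5.06 ± 1.92 CPM against 6.60 ± 0.584, Hist3h2a 2.71 ± 0.841 against 3.87 ± 0.792 and Hist2h2ac 4.27 ± 1.71 against 5.33 ± 2.33 (wild type against knockout, SD, n = 3). The family median was 0.24 over 13 tested genes, 7 positive and 6 negative. It was 0.05 without wild-type replicate 1, 0.06 without knockout replicate 1, 0.04 without knockout replicate 3 and 0.46 without knockout replicate 2. Hist1h2ae, named after its values were seen, had the lowest log2 fold change of any member, -0.88, at a mean under 1 CPM in both genotypes.

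Cluster H2B was the cluster family with the highest summed CPM. Its sum was 165, 177 and 244 CPM in wild type and 231, 136 and 240 CPM in the knockout, and its median log2 fold change was 0.04 over 16 tested genes, or -0.17 without knockout replicate 1 and 0.23 without knockout replicate 2. Hist1h2bl led with 34.3, 39.7 and 67.1 CPM in wild type and 61.1, 24.6 and 61.4 CPM in the knockout (log2 fold change 0.06, SE 0.32, edgeR adjusted p = 0.957). Its highest value came from a wild-type library and its lowest from a knockout library. Per kilobase of the longest annotated transcript, Hist1h2bl had the highest level of all members, 126 CPM per kb, followed by H2afx at 64.1, Hist1h2ak at 56.7 and Hist1h4d at 55.2 CPM per kb. For Hist1h2bl this uses an annotated transcript of 381 bases with no UTR, and 62.1% of its windows of 100 bases also occur in other members, so its level is uncertain.

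Other H2B genes lay on both sides of 0. Hist1h2bg measured 11.1, 14.05 and 18.1 CPM in wild type and 10.04, 5.68 and 12.7 CPM in the knockout (log2 fold change -0.61, SE 0.28, edgeR adjusted p = 0.330), with overlapping groups. Hist1h2be measured 22.1, 19.2 and 23.8 CPM against 18.8, 11.5 and 19.7 CPM (log2 fold change -0.38, SE 0.21). Hist1h2bc, whose annotated transcript has 742 bases of 3′ UTR and no stem-loop, measured 26.1, 20.3 and 24.3 CPM against 22.6, 31.1 and 28.4 CPM (log2 fold change 0.21). It was among the few cluster genes in which knockout replicate 2 was the highest of its group. Hist1h2bm had 22.8 ± 2.21 CPM in wild type and 21.5 ± 6.79 in the knockout. Hist1h2bj and Hist1h2bb, named after their values were seen, had log2 fold changes of 0.91 and 0.82 at means of 5.11 and 5.68 CPM in wild type.

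Cluster H3 genes summed to 34.2, 43.6 and 42.6 CPM in wild type and 46.8, 23.8 and 49.4 CPM in the knockout, a ratio of means of 0.996. Their median log2 fold change was 0.10 over 10 tested genes, between -0.01 without knockout replicate 3 and 0.29 without knockout replicate 2, and -0.09 with the length and GC correction. Hist1h3e measured 13.1, 19.3 and 9.90 CPM in wild type and 11.3, 4.24 and 14.8 CPM in the knockout (log2 fold change -0.48, SE 0.37, edgeR adjusted p = 0.584). Hist1h3c measured 6.23, 8.54 and 18.6 CPM against 17.1, 8.54 and 15.8 CPM (log2 fold change 0.31, SE 0.36). Both had overlapping groups and opposite signs, although they carry the same stem-loop form. Hist1h3b and Hist1h3f stayed under 6 CPM in every library, with log2 fold changes of 0.39 and 0.06. The single cluster gene whose groups did not overlap, Hist2h3c2, had 0.531 ± 0.296 CPM in wild type and 0.905 ± 0.151 in the knockout.

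Cluster H4 genes had a median of -0.17 over 10 tested genes, 6 of them negative. Hist1h4d, which carried most H4 counts, measured 81.9, 81.2 and 54.6 CPM in wild type and 64.6, 36.6 and 57.8 CPM in the knockout (log2 fold change -0.45, SE 0.22, edgeR adjusted p = 0.359). Wild-type replicate 3 lay within the knockout range, so the groups overlapped. Its share of H4 counts was 79.8%, 81.1% and 78.1% in wild type and 74.6%, 74.2% and 73.5% in the knockout, and these shares did not overlap. The share is a ratio within each library, and in knockout replicate 2 it was close to that of the other knockout libraries. Of the other shares given within a family, that of H2afx did not overlap either. Those of H3f3a with H3f3b, of H1f0 and of Hist1h2ak did, and no share was tested. Hist2h4, Hist1h4c and Hist4h4 each had a mean under 6 CPM in both genotypes and log2 fold changes of 0.19, 0.13 and 0.09. Each of these 3 genes had a negative value when certain single libraries were left out. The H4 median was -0.00079 without knockout replicate 2, -0.02 without wild-type replicate 1, -0.33 without wild-type replicate 2 and -0.39 with the length and GC correction.

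**Figure D3:**
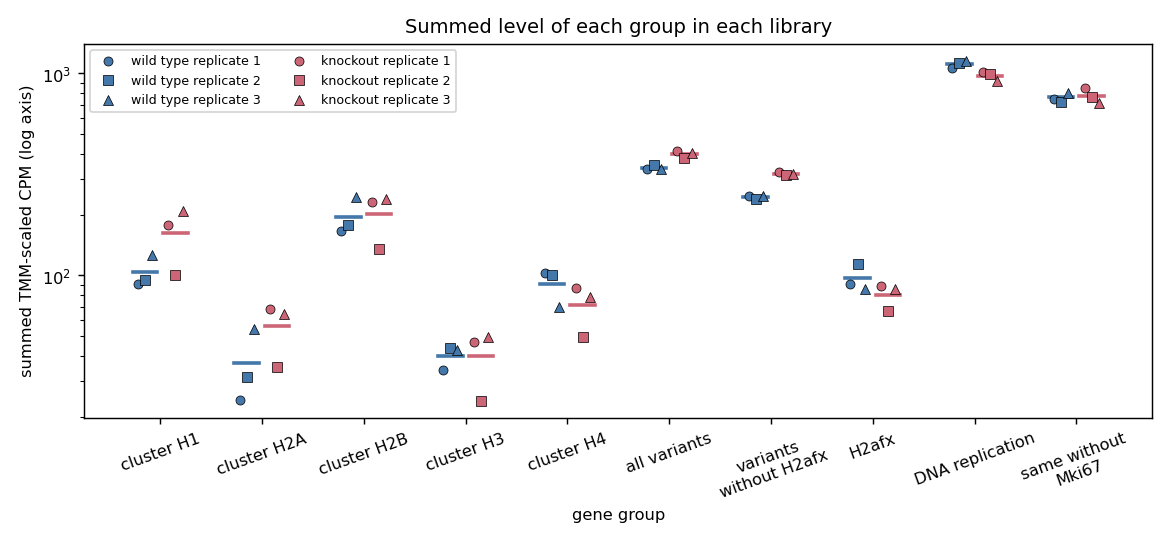
Summed CPM (y axis, log scale) of the cluster families, all variants, the variants without H2afx, H2afx, and a list of DNA replication genes with and without Mki67; each point is a library and bars are group means. All variants lie at 335 to 353 CPM in wild type and 382 to 413 CPM in the knockout. Without H2afx, left out for its lower knockout mean, they lie at 238 to 248.7 and 315 to 325 CPM. Knockout replicate 2 (red square) is the lowest knockout library in all 5 cluster families but not for the DNA replication genes.

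The spread between libraries was wider for cluster genes than for the variants. Knockout replicate 2 was the lowest knockout library for 50 of the 54 tested cluster genes (92.6%), against 35.1% of all genes tested and 4 of 8 variants. Wild-type replicate 3 was the highest wild-type library for 27 of the 54, against 34.4% of all genes. Among members with a mean of at least 5 CPM, the median ratio of highest to lowest knockout library was 2.12 for 22 cluster genes and 1.08 for 8 variants, against 1.26 over 7610 genes. In wild type the ratios were 1.70, 1.40 and 1.39. All cluster genes together summed to 417, 447 and 537 CPM in wild type and 610, 345 and 641 CPM in the knockout. As a share of histone counts this was 55.2%, 55.9% and 61.6% in wild type and 59.6%, 47.4% and 61.4% in the knockout, 57.6% ± 3.51 against 56.1% ± 7.60 (SD, n = 3). The genotypes overlapped, and the difference of means was -1.43 percentage points, or 2.93 without knockout replicate 2. DNA replication genes did not share this order, with 1013, 995 and 919 CPM in knockout replicates 1 to 3. Of the knockout libraries, replicate 2 had the most Acta2 and Myh11 and the lowest stem cell and Paneth cell sums. Its enterocyte markers (Alpi, Fabp1, Apoa1, Sis, Lct) summed to 327 CPM, against 204 and 193 CPM in knockout replicates 1 and 3. In wild-type replicates 1 to 3 they summed to 182, 183 and 258 CPM. In wild type the library with the lowest stem cell sum and the highest enterocyte sum, replicate 3, had the highest cluster sum. That library also had the highest goblet cell sum, 4492 CPM. The part of these differences in the cluster values of either library was not tested.

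Position in the Hist1 cluster on chromosome 13 gave no common direction. The members fell into 4 blocks in GRCm38 coordinates. The first (21715763 to 21837530) held 18 genes, 14 of them tested, with a median log2 fold change of 0.13. The second (22035164 to 22043676) held 5 genes, and its 3 tested ones were all positive with a median of 0.40. The third (23531050 to 23764406) held 29 genes, 27 of them tested, with a median of 0.02, 14 positive and 13 negative. The fourth (23933773 to 23934851) held the testis pair Hist1h2aa and Hist1h2ba, with 8 and 5 counts in all. The 8 tested genes of the Hist2 cluster had a median of 0.06.

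**Figure D4:**
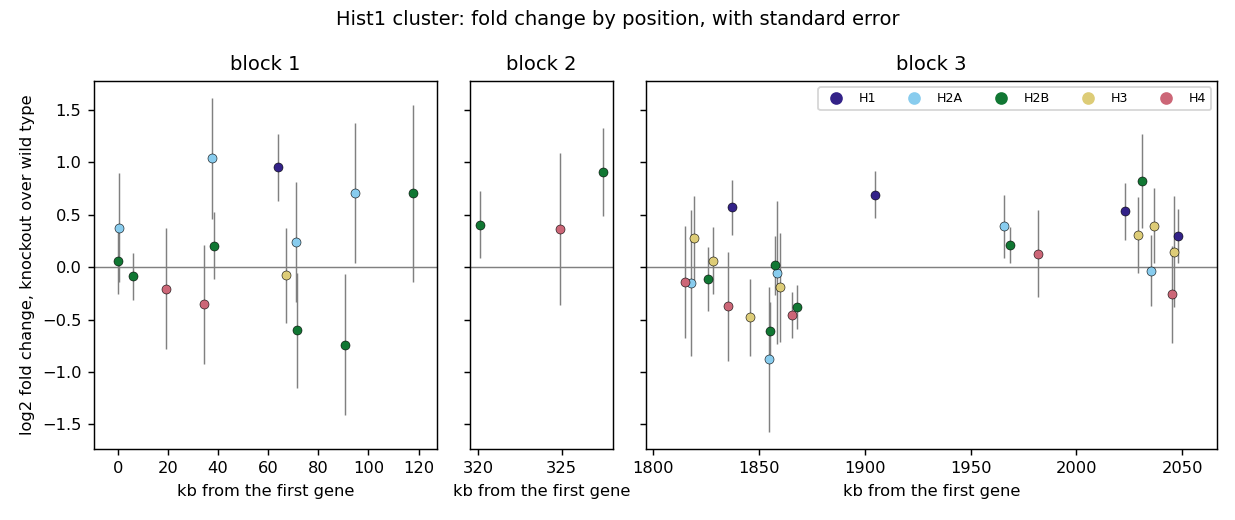
Log2 fold change (knockout over wild type, y axis, with standard error) of the tested Hist1 cluster genes against distance in kb from the first gene (x axis, broken into 3 blocks; the fourth block held no tested gene); colours mark the histone family. Members of different families lie on either side of 0 within the same stretch, and the 5 H1 genes (dark blue) lie above 0 in blocks 1 and 3.

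H2A and H2B genes are often arranged head to head around a shared promoter. Overlapping promoter windows gave 10 such pairs, and pairs in which a gene had no window could not be found. Both partners were tested in 6 pairs, of which 3 had log2 fold changes of the same sign and 3 of opposite sign. Of the opposite pairs, named for their position, Hist1h2bf and Hist1h2ad lay near 0 (0.016 and -0.054). Hist1h2bq with Hist1h2ao and Hist1h2an with Hist1h2bp were low, at means of 0.501, 0.639, 0.836 and 0.985 CPM. Of the same-sign pairs, Hist1h2ae lay at 0.601 CPM and Hist1h2bl had a log2 fold change of 0.06. Within the Hist1h2ak pair, Hist1h2ak had 1.04 and its partner Hist1h2bn, named for its position, 0.21. Hist1h2bn measured 9.56, 7.02 and 10.2 CPM in wild type and 12.7, 4.98 and 13.2 CPM in the knockout, without the low values of Hist1h2ak in wild-type replicates 1 and 2. Grouping by loop sequence gave medians of -0.03 for 27 tested genes with TTTC, 0.18 for 6 with TTTA and 0.32 for 3 with TTTT. The variant H2afx is among those with TTTA. Those with TTTT, Hist1h4i, Hist2h2ac and Hist2h4, had low means of 0.679, 4.80 and 4.99 CPM. Cluster genes with a stem-loop, together with H2afx, had a median of 0.07 and cluster genes without one in the annotated transcript 0.11.

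A total of 13 members had too few counts to test: the variants H1fx and H2afy2 and the cluster genes Hist1h1t, Hist1h2aa, Hist1h2ag, Hist1h2ah, Hist1h2ap, Hist1h2ba, Hist3h2ba, Hist1h3h, Hist1h4b, Hist1h4m and Hist1h4n. Their totals over the 6 libraries ran from 1 count for Hist1h2ap to 62 for Hist3h2ba. Hist1h2aa had 2, 4 and 2 counts in wild type and 0 in each knockout library, which allows up to 3 counts in each.

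Genes that make, process and degrade cluster histone mRNA were then compared. Of 29 genes on this list, all tested, none was called by edgeR, 4 had an unadjusted p under 0.05, all lower in the knockout (beside 7.66% of all genes tested), and the median log2 fold change was -0.16. Slbp, whose product binds the stem-loop and is needed for processing and translation, had 15.7 ± 1.37 CPM in wild type and 13.4 ± 0.824 in the knockout (SD, n = 3; log2 fold change -0.23, edgeR adjusted p = 0.577). Npat, the coactivator of cluster histone transcription, had 14.7 ± 3.47 and 14.2 ± 1.63 CPM. Cdk2, the kinase that activates NPAT, measured 10.5, 8.26 and 9.34 CPM in wild type and 5.81, 5.31 and 5.86 CPM in the knockout (log2 fold change -0.72, SE 0.21, edgeR adjusted p = 0.142). Its groups were well apart. Tut4 and Tut7, whose products add uridines to RNA ends and have been tied to histone mRNA decay, had log2 fold changes of -0.46 and -0.30 with groups that did not overlap either. Cdk2, Tut4 and Tut7 were named for the lowest p of the list. Groups apart follow largely from that choice and are no further support. Over all genes tested, 9.56% had groups apart and lower in the knockout.

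Histone chaperones carry histones to DNA and exchange variants. None of the 35 tested was called by edgeR, 6 had an unadjusted p under 0.05, all lower in the knockout (beside 7.66% of all genes tested), and the median was -0.05. Hira, the chaperone that deposits H3.3, measured 2.66, 7.58 and 3.22 CPM in wild type and 1.83, 2.63 and 1.89 CPM in the knockout (log2 fold change -1.08, SE 0.42, edgeR adjusted p = 0.243). The wild-type mean rested on replicate 2, without which the log2 fold change was -0.48. Srcap and Ep400, whose products exchange H2A.Z into chromatin, had 24.3 ± 4.07 against 15.4 ± 2.95 CPM and 52.9 ± 5.98 against 38.5 ± 6.14 CPM (log2 fold changes -0.66 and -0.46, edgeR adjusted p = 0.147 and 0.217). For both the knockout libraries all lay below the wild-type ones, as they did for 9.56% of all genes tested. Srcap and Ep400 were named for their low p, so this separation is no further support. Asf1b and Chaf1a, which bring new H3 and H4 to replicating DNA, had log2 fold changes of 0.16 and -0.07, each of which changed sign in at least 1 alternative.

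Since cluster histone mRNA is made while DNA is copied, DNA replication genes were read beside it. None of 43 was called by edgeR, 3 had an unadjusted p under 0.05 higher and 2 lower (beside 7.53% and 7.66% of all genes tested), and the median was 0.06. Their summed level was 1064, 1129 and 1153 CPM in wild type and 1013, 995 and 919 CPM in the knockout, without overlap. Mki67, the proliferation marker, had 355 ± 46.0 CPM in wild type and 201 ± 32.9 in the knockout (log2 fold change -0.82, SE 0.17, edgeR adjusted p = 0.0628). The lower sum rested on it: without Mki67 the list summed to 752, 726 and 805 CPM in wild type and 844, 761 and 717 CPM in the knockout, with overlap. Pcna, the sliding clamp of DNA polymerase, had 40.7 ± 3.66 and 46.5 ± 7.23 CPM. Rpa3, a subunit of the single-strand binding complex, had 4.57 ± 1.86 and 11.6 ± 3.28 CPM (log2 fold change 1.33, SE 0.31, edgeR adjusted p = 0.0879), and Uhrf1, which reads newly copied DNA, 25.2 ± 6.02 and 15.95 ± 3.27 CPM (log2 fold change -0.66, edgeR adjusted p = 0.175). Members of the list lay in both directions.

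Among cluster genes, 38 share over 25% of their 100-base windows with other members. Exons of 29 members overlap another gene, in most cases on the other strand. Reads from such stretches may have been dropped or counted for another gene, and which of these held could not be told from the counts. None of the replacement variants shares that much with another member.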

How the data were processed

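Per the labels' protocols, total RNA went through whole-transcriptome amplification (Ovation Pico WTA System V2) and Nextera DNA Flex library preparation. The submitters' processing notes name STAR 2.6.1, HTSeq and mm10. No source used here gives the strand setting or the annotation release. The authors deposited raw read counts per gene, whole numbers without normalization. Histone symbols, coordinates, lengths and stem-loops came from GENCODE vM21 (GRCm38, the same build), which matched 28543 of 28564 identifiers, and promoters from RefSeq. The counts were tested with edgeR 4.0.16 under R 4.3.3: filterByExpr (count minimum 10, total minimum 15), TMM scaling, glmQLFit and glmQLFTest, knockout against wild type, with Benjamini-Hochberg adjustment over 15122 genes at 0.05. CPM are TMM-scaled. The script was tested on simulated data. Alternatives included the DESeq2 1.42.0 Wald test and a correction for length and GC content. Within each genotype, pairs of libraries had a chi-square of 8.17 to 62.8 per degree of freedom, so none was taken for another counted again. Named are the 4 most abundant members of each cluster family, the 4 members of lowest p in each direction, every tested variant, and from each pathway list the 3 genes of lowest p plus Slbp, Npat, Asf1b, Chaf1a, Hira and Pcna; others are marked. Members and lists were chosen with earlier results of these data known.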

Additional observations from a re-analysis of the deposited data

How the results depend on the processing

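Over the whole table, 26 genes were called; the count was 1 with DESeq2 size factors in the edgeR fit, 1 without the 5 most abundant entries, 581 with the DESeq2 Wald test, 629 with no filter on low counts, 117 at 1 CPM or more in 3 libraries, 1 with the correction for length and GC content, and 0 to 358 when a library was left out, with 358 without wild-type replicate 3. Histone genes called higher numbered 0, but 3 with the DESeq2 Wald test, 5 with no filter (H3f3a, Hist1h1b, Hist1h1e, Hist1h2ak, Hist1h2bj), 1 at 1 CPM in 3 libraries (H3f3a, edgeR adjusted p = 0.0449), and 0 to 4 when a library was left out, the 4 without wild-type replicate 3 (H2afv, H3f3a, Hist1h2ak, Hist1h2bj). Histone genes called lower numbered 0 under each alternative run. The cause of these differences was not tested. The replacement median of 0.33 was 0.19 with the length and GC correction and 0.29 to 0.35 when a library was left out. Classed by stem-loop instead, the members without one had a median of 0.23. They include 19 tested cluster genes, so that value is not one of the variants alone. The cluster median of 0.10 was -0.05 with the length and GC correction and -0.03 to 0.36 when a library was left out.

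Several named genes near 0 changed sign. With the length and GC correction, log2 fold changes were -0.038 for Hist1h2bc, -0.064 for Hist1h2bl, -0.16 for Hist1h3f, -0.14 for Hist1h4c, -0.016 for Hist4h4, -0.035 for Pcna and 0.13 for Chaf1a. With a library left out they ran from -0.14 to 0.41 for Hist1h2bl, -0.22 to 0.16 for Hist1h2bm, -0.077 to 0.27 for Hist1h3f, -0.11 to 0.63 for Hist1h4c, -0.13 to 0.45 for Hist2h4, -0.33 to 0.43 for Hist4h4, -0.16 to 0.12 for H2afy, -0.11 to 0.48 for Asf1b, -0.21 to 0.0074 for Chaf1a and -0.20 to 0.15 for Npat.

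Libraries of the same number in the labels' titles deviated together with correlations of 0.0406, 0.0569 and 0.0109 over genes, all under the 0.1 set for pairing, and the numbers were not taken to pair the samples; as a hint from the data alone, 5 of the 6 libraries correlated best with their own number. The table's columns number knockout replicates 2 and 3 as 3 and 4, and by those numbers the shared ones, 1 and 3, gave 0.0406 and -0.00994. With the replicate number as a block, edgeR called 173 genes and 0 histone genes. Depth limits the low members: 13 were too low to test.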
